A study of Homo sapiens with 8 samples.

Results

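The genes described here are 10 of the 17 genes whose RNA levels make up the leukaemia stem cell score, NYNRIN itself being another of the 17. They were picked by symbol from both deposited tables, which list 35971 genes in all and 13068 genes in common. All 10 were found, 9 of them in both tables and DPYSL3 in the second table alone. The libraries came from sorted cells labelled KG-1a, an established line of human acute myeloid leukaemia, and the labels give them as leukaemia stem cells from bone marrow. The cells carried either a control lentiviral hairpin (shCTL, genotype labelled WT) or a hairpin against NYNRIN (shNYNRIN, genotype labelled NYNRIN-knockdown). The labels do not say how many hairpins were used, nor whether the replicates of a group were grown separately, so a p-value here measures only spread between libraries, which may be technical. Each group had 4 libraries. Replicates 1 and 2 of each group are in the first table (set 1) and replicates 3 and 4 in the second (set 2). Values are read as FPKM, read numbers scaled to transcript length and library size. The column of shCTL replicate 3 holds whole numbers and did not enter the tests. The control of set 2 is therefore shCTL replicate 4 alone, whose spread is taken to be that of the other groups.

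The score is a weighted sum of RNA levels that was built from genes more abundant in leukaemic cells able to engraft mice than in cells that are not, and a high score goes with poor outcome in acute myeloid leukaemia. DNMT3B, LAPTM4B, MMRN1, DPYSL3, SOCS2, CD34 and ADGRG1 enter it with a positive weight, and ARHGAP22, SMIM24 and AKR1C3 with a negative weight. The genes share no single pathway: they encode surface molecules, a secreted granule protein, regulators of signalling and enzymes.

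In short, shNYNRIN went with changes of several score genes in set 2 and of few in set 1. In set 2 AKR1C3, MMRN1, SOCS2 and LAPTM4B rose and SMIM24 and CD34 fell, 6 of the 9 tested members, where 20.3% of all 12939 tested genes passed in that set (11.6% higher and 8.71% lower, limma adjusted p under 0.05). In set 1 ADGRG1 fell, 1 of the 9, where 15.9% of all genes passed (9.33% higher and 6.61% lower). DNMT3B and ARHGAP22 passed in neither set. Without shNYNRIN replicate 3 or 4, set 2 is left with 1 library against 1. The calls of SOCS2, LAPTM4B and CD34 were then lost and those of AKR1C3, MMRN1 and SMIM24 kept, and fewer of all genes passed as well. The set 1 call of ADGRG1 was lost without any 1 library of the 5 named with its values. The sets also cross the numbers in the library names, and paired by those numbers MMRN1, AKR1C3 and SOCS2 were higher and SMIM24 lower with shNYNRIN in 4 of 4 pairs. This pairing was counted after seeing the data. The share of all genes with such a pattern was not computed, so the count has no background beside it. Each pair spans both sets, and 1 pair holds the whole-number column of shCTL replicate 3.

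Regulatory sequence is shown for the 3 members whose set 2 changes passed under each of 13 alternatives, MMRN1, AKR1C3 and SMIM24. Each line gives the 250 bases before an annotated start from RefSeq (GRCh38.p14), in the direction of the gene: MMRN1 at chr4:89894604-89894853 on the plus strand, AKR1C3 at chr10:5094164-5094413 on the plus strand and SMIM24 at chr19:3480526-3480775 on the minus strand. Capitals mark a match to 1 of 3 motifs searched on both strands, and motifs did not overlap in these windows.
MMRN1: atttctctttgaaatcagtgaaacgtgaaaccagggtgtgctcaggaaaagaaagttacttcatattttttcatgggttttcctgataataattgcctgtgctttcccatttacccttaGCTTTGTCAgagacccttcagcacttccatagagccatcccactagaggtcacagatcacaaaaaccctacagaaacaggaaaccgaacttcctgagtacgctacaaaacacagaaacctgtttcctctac
AKR1C3: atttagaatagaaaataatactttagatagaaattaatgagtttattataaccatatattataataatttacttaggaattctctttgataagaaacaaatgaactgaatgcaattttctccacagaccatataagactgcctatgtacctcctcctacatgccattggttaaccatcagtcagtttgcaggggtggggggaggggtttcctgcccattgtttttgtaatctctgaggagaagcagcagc
SMIM24: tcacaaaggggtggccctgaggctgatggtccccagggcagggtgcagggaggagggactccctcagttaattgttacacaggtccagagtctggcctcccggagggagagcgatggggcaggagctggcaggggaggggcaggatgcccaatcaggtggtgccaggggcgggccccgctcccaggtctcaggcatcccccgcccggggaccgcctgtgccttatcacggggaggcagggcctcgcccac
The motifs were TTCNNNGAA, bound by STAT factors, TGACNNNGC, the core of the antioxidant response element, and AGATAA, bound by GATA factors. They are in 6.6%, 10.9% and 9.2% of 35116 such windows. The MMRN1 window shown holds the antioxidant response core on its reverse strand, and the other MMRN1 window, chr4:89879261-89879510 before the start of the gene, holds none of the 3 motifs. The letters searched are not in the windows of AKR1C3 and SMIM24 shown. For GATA factors AGATAA alone was searched. TGATAA was not searched, though the windows of MMRN1 and AKR1C3 shown hold it as printed and that of SMIM24 on the reverse strand. The search covered 16 windows of 8 of the 10 members, and no window of LAPTM4B or SOCS2 was searched. Of these 16 windows, 2 hold the STAT letters (ADGRG1 and ARHGAP22), 3 the antioxidant response core (ADGRG1, DPYSL3 and MMRN1) and 2 the GATA letters (AKR1C3, at a start farther upstream, and ARHGAP22). A match is a run of letters and was not tested for binding.

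By level, LAPTM4B was the most abundant member, with a median of 289 FPKM over the 7 tested libraries, above 99.3% of the genes listed in both tables. DNMT3B followed at 79.1 FPKM. SMIM24 (28.1 FPKM) and MMRN1 (23.8 FPKM) came next, and their ranges over the libraries overlapped, at 21.5 to 40.1 and 18.2 to 27.8 FPKM. ARHGAP22 stood at 15.4 FPKM, above the highest ADGRG1 value of 13.1 FPKM in each library. ADGRG1 (11.6 FPKM), SOCS2 (11.6 FPKM) and AKR1C3 (7.89 FPKM) overlapped in their ranges. CD34 stood at 0.949 FPKM, with only 3.3% of genes lower. DPYSL3, a cytoskeletal phosphoprotein best known from neurons, was listed in set 2 alone at 0.019 FPKM in shCTL replicate 4 and 0.0213 and 0.0073 FPKM with shNYNRIN, and was not tested. These levels set values of both tables side by side, which may have been scaled separately.

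Cell identity was read from marker lists. KG-1a cells are known for CD34 and CD7 at their surface, yet CD34 stood between 0.681 and 1.79 FPKM and CD7, listed in set 2, between 0.0258 and 0.116 FPKM. The leukocyte genes PTPRC and SPN were present, PTPRC at 23.2 to 30.7 FPKM. The megakaryocyte list summed to 740 to 791 FPKM in shCTL and 712 to 748 FPKM in shNYNRIN over 4 listed genes, led by the integrin chain ITGA2B at 518 to 589 FPKM. Of the erythroid genes, the globins HBB and HBA1 stood at 31.4 to 50.8 and 2.17 to 4.36 FPKM. KLF1, a transcription factor of red cell precursors, stood at 72.3 and 69.4 FPKM in shCTL and 59.6 and 53.0 FPKM in shNYNRIN of set 1, and at 60.0 FPKM in shCTL replicate 4 and 70.0 and 65.9 FPKM in shNYNRIN of set 2. ALAS2, the haem synthesis enzyme of red cell precursors, was at 9.23 to 10.48 FPKM in the tested shCTL libraries and at 11.9 to 15.6 FPKM in the shNYNRIN libraries, with no overlap. The monocyte list summed to 13.6 to 15.8 FPKM in shCTL and 16.7 to 19.7 FPKM in shNYNRIN over 5 genes. Set 1 lists 3 of the 5, so its sums leave out CD14 and FCGR3A. LYZ, the lysozyme gene, was at 9.02 to 9.74 FPKM in shCTL and 12.2 to 14.4 FPKM in shNYNRIN. VCAN went the other way, from 3.57 and 3.67 to 3.53 and 3.16 FPKM in set 1 and from 5.19 to 4.81 and 4.82 FPKM in set 2. CSF1R overlapped, at 0.738 to 1.13 FPKM in shCTL and 0.923 to 1.35 FPKM in shNYNRIN. CD14 and FCGR3A were below 0.1 FPKM in every library that lists them. Granulocyte and stroma lists summed to at most 0.225 and 0.294 FPKM, with MPO at 0 in the 3 tested libraries of set 2. The T cell list summed to 15.4 to 16.3 FPKM in shCTL and 15.3 to 18.4 FPKM in shNYNRIN over 4 listed genes. Set 1 lists CD4 alone of these. Nearly all of the sum was CD4, which monocytic cells also carry, while CD3D, CD3E and CD8A were below 0.1 FPKM in every library that lists them. The part of these markers in the results was not tested. In bulk RNA, fewer cells that express a gene and less RNA per cell cannot be told apart.

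NYNRIN, the target of the hairpin, stood at 12.2 and 12.5 FPKM in shCTL and at 6.98 and 7.30 FPKM in shNYNRIN of set 1. In set 2 it was at 10.4 FPKM in shCTL replicate 4 and at 2.83 and 2.84 FPKM with shNYNRIN. The knockdown libraries were lower than the control libraries in both sets, and the log2 fold changes were -0.71 and -1.57.

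Among the surface molecules, CD34, the sialomucin that marks stem and progenitor cells, went opposite ways in the 2 sets. Its gene spans chr1:207880972-207911402 on the minus strand (GRCh38, GENCODE 29). In set 1 CD34 was at 0.949 and 0.933 FPKM in shCTL and at 1.42 and 1.199 FPKM in shNYNRIN. In set 2 it was at 1.79 FPKM in shCTL replicate 4 and at 0.765 and 0.681 FPKM in shNYNRIN, with shCTL replicate 3 listed at 1. Thus both shNYNRIN libraries lay above both controls in set 1 and below the control in set 2. The log2 fold change of log2(FPKM + 1) was 0.25 in set 1 (standard error, SE, 0.12; limma adjusted p = 0.206) and -0.69 in set 2 (SE 0.15, limma adjusted p = 0.0201), a difference of -0.94 (limma adjusted p = 0.0166). For CD34 in set 1 the authors' deposited table has 0.45 on the log2 scale, with a q-value of 0.0269 and a mean normalized count of 347.7. Because the gene is so low, the size of the set 2 change depended on the value added before the logarithm: it was -1.199 with 0.1 and -0.25 with 5 added, and it passed with each. CD34 reached 1 FPKM, the minimum for testing, in shCTL replicate 4 and in both shNYNRIN libraries of set 1. The set 2 call was lost with shCTL replicate 3 as deposited (limma adjusted p = 0.140), without shNYNRIN replicate 3 (0.0661) and without shNYNRIN replicate 4 (0.0858), in a range of 0.0175 to 0.140 over 12 alternatives. The call of the difference was lost with shCTL replicate 3 as deposited (limma adjusted p = 0.123) and without shNYNRIN replicate 4 (0.0583).

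ADGRG1 (GPR56), an adhesion receptor coupled to G proteins that is found on blood stem cells, also changed sign between the sets. In set 1 it was at 13.1 and 12.6 FPKM in shCTL and at 11.3 and 10.4 FPKM in shNYNRIN, so that both knockdown libraries were lower. The set 2 levels were 10.6 FPKM in shCTL replicate 4 and 11.8 and 11.6 FPKM in shNYNRIN, which were higher. ADGRG1 fell by 0.22 on the log2 scale in set 1 (SE 0.053, limma adjusted p = 0.0358), and stood 0.13 higher in set 2 without passing (SE 0.065, limma adjusted p = 0.209). The difference of 0.35 passed (limma adjusted p = 0.0286). In the authors' deposited table ADGRG1 has a log2 fold change of -0.27 in set 1 and a q-value of 0.00216. The set 1 call was lost without shCTL replicate 1 or 2 (limma adjusted p = 0.158 and 0.1004) and without shNYNRIN replicate 2, 3 or 4 (0.0988, 0.0733 and 0.0730), in a range of 0.0181 to 0.158 over 15 alternatives. With the title number as a replicate block in set 1 alone it was also lost (0.0914). With shCTL replicate 3 as deposited, at 9, the set 1 call was lost (0.0840) and the set 2 rise passed (0.0413). The call of the difference was lost without shCTL replicate 1 or 2 or shNYNRIN replicate 3 or 4 (limma adjusted p = 0.0839, 0.0563, 0.0909 and 0.0827).

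SMIM24, a small protein with a membrane-spanning segment, was lower with shNYNRIN in each set and more so in set 2. Its gene spans chr19:3473986-3480542 on the minus strand, and its start region is shown above. In set 1 SMIM24 was at 29.03 and 28.5 FPKM in shCTL and at 28.1 and 24.9 FPKM in shNYNRIN. SMIM24 in set 2 was at 40.1 FPKM in shCTL replicate 4, listed at 35 in shCTL replicate 3, and at 22.7 and 21.5 FPKM in shNYNRIN. No shNYNRIN library reached the lowest of the tested shCTL libraries. The log2 fold change was -0.11 in set 1 (SE 0.060, limma adjusted p = 0.239) and -0.83 in set 2 (SE 0.073, limma adjusted p = 0.000990), where the ratio of mean FPKM was 0.552. The sets differed by -0.72 (limma adjusted p = 0.00371), and both the set 2 fall and the difference passed under each of 13 alternatives, with a highest adjusted p of 0.00912 and 0.0180.

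LAPTM4B, a lysosomal membrane protein that also takes part in growth factor receptor trafficking, moved little. In set 1 it was at 281 and 292 FPKM in shCTL and at 289 and 289 FPKM in shNYNRIN, which overlapped. LAPTM4B in set 2 was at 262 FPKM in shCTL replicate 4, listed at 261 in shCTL replicate 3, and at 293 and 292 FPKM in shNYNRIN. LAPTM4B had a log2 fold change of 0.01 in set 1 (SE 0.026, limma adjusted p = 0.830), with a sign that turned under upper-quartile scaling (-0.030), and 0.16 in set 2 (SE 0.032, limma adjusted p = 0.0164). The set 2 rise was lost without shNYNRIN replicate 3 or 4 (limma adjusted p = 0.0802 and 0.0752, in a range of 0.00140 to 0.0802 over 13 alternatives). The difference between the sets, 0.15 (limma adjusted p = 0.0460), was lost without shCTL replicate 2 (0.113) and without shNYNRIN replicate 1, 2, 3 or 4 (0.0671, 0.0712, 0.137 and 0.125).

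MMRN1, or multimerin 1, is a large secreted protein stored in platelet granules and in endothelial cells, which binds coagulation factor V. Its gene spans chr4:89879532-89954629 (plus strand). In set 1 MMRN1 was at 23.8 and 24.1 FPKM in shCTL and at 21.5 and 23.3 FPKM in shNYNRIN. MMRN1 in set 2 was at 18.2 FPKM in shCTL replicate 4, listed at 18 in shCTL replicate 3, and at 27.8 and 27.7 FPKM in shNYNRIN. The knockdown libraries were thus slightly the lower in set 1 and the higher in set 2, in sets that each compare libraries of different library-name numbers. The log2 fold change was -0.091 in set 1 (SE 0.046, limma adjusted p = 0.220) and 0.58 in set 2 (SE 0.056, limma adjusted p = 0.00123), where the ratio of mean FPKM was 1.52. The difference of 0.67 between the sets passed (limma adjusted p = 0.00190), and it and the set 2 rise passed under each of 13 alternatives, with a highest adjusted p of 0.0126 and 0.0121.

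Of the signalling genes, SOCS2 encodes a suppressor of cytokine signalling that is induced by STAT5 and damps growth hormone and cytokine receptors. In set 1 SOCS2 was at 11.2 and 11.1 FPKM in shCTL and at 11.8 and 11.6 FPKM in shNYNRIN. SOCS2 in set 2 was at 10.1 FPKM in shCTL replicate 4, listed at 10 in shCTL replicate 3, and at 12.6 and 12.5 FPKM in shNYNRIN. Each shNYNRIN library lay above each shCTL library. SOCS2 had a log2 fold change of 0.064 in set 1 (SE 0.042, limma adjusted p = 0.340) and 0.29 in set 2 (SE 0.051, limma adjusted p = 0.0101). The set 2 rise was lost without shNYNRIN replicate 3 or 4 (limma adjusted p = 0.0569 and 0.0552, in a range of 0.00158 to 0.0569 over 13 alternatives). The difference of 0.23 between the sets did not pass (limma adjusted p = 0.0538, 0.0313 to 0.150 over 13 alternatives), but did with shCTL replicate 3 as deposited (0.0313) or plus 0.5 (0.0404), with a minimum of 10 FPKM (0.0448) and with upper-quartile scaling (0.0418). An antisense transcript, SOCS2-AS1, shares 277 exonic bases with SOCS2, and no source used here says whether the counting used strand.

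ARHGAP22, a GTPase-activating protein for Rac, was at 15.6 and 16.4 FPKM in shCTL and 15.1 and 15.4 FPKM in shNYNRIN of set 1. In set 2 it was at 15.6 FPKM in shCTL replicate 4 and at 14.1 and 14.8 FPKM in shNYNRIN. Each shNYNRIN library lay below each tested shCTL library. The whole-number column of shCTL replicate 3 lists 14, and its place beside the set 2 shNYNRIN values is not known if the column is truncated. The log2 fold changes of -0.063 (95% interval -0.17 to 0.045) in set 1 and -0.11 (-0.24 to 0.026) in set 2 did not pass (limma adjusted p = 0.387 and 0.235).

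Of the enzymes, AKR1C3 is an aldo-keto reductase that reduces steroids and prostaglandins and is induced by NRF2 in many cells. Its gene spans chr10:5035354-5107686 (plus strand). In set 1 AKR1C3 was at 6.76 and 7.89 FPKM in shCTL and at 8.57 and 7.76 FPKM in shNYNRIN, which overlapped. AKR1C3 in set 2 was at 5.23 FPKM in shCTL replicate 4, listed at 6 in shCTL replicate 3, and at 10.6 and 11.3 FPKM in shNYNRIN, which lay above every other library. The log2 fold change was 0.14 in set 1 (SE 0.082, limma adjusted p = 0.281) and 0.94 in set 2 (SE 0.10, limma adjusted p = 0.00169), where the ratio of mean FPKM was 2.097. The difference of 0.80 between the sets passed (limma adjusted p = 0.00775), and it and the set 2 rise passed under each of 13 alternatives, with a highest adjusted p of 0.0335 and 0.0145. AKR1C3 has close copies whose reads the counting could share. Of these AKR1C1 and AKR1C2 stood at 0.327 and 0.0811 FPKM in shCTL replicate 4 and at 0.537 to 0.694 and 0.219 to 0.316 FPKM in the shNYNRIN libraries of set 2, while AKR1C4 stood at 0.719 FPKM in the control and at 0.373 and 0.227 FPKM with shNYNRIN.

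DNMT3B, a DNA methyltransferase that sets methylation anew, was at 81.6 and 78.3 FPKM in shCTL and at 83.9 and 76.9 FPKM in shNYNRIN of set 1, which overlapped. DNMT3B in set 2 was at 70.7 FPKM in shCTL replicate 4, listed at 69 in shCTL replicate 3, and at 79.5 and 79.1 FPKM in shNYNRIN. DNMT3B had a log2 fold change of 0.0065 in set 1 (95% interval -0.10 to 0.11, limma adjusted p = 0.940) and its sign turned under upper-quartile scaling (-0.033). In set 2 it was 0.16 and did not pass (limma adjusted p = 0.0834, and between 0.0122 and 0.217 over 13 alternatives). Including shCTL replicate 3 as deposited, it was 0.18 and passed (0.0122), and it also passed without shNYNRIN replicate 1 or 2 (0.0279 and 0.0276).

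**Figure D1:**
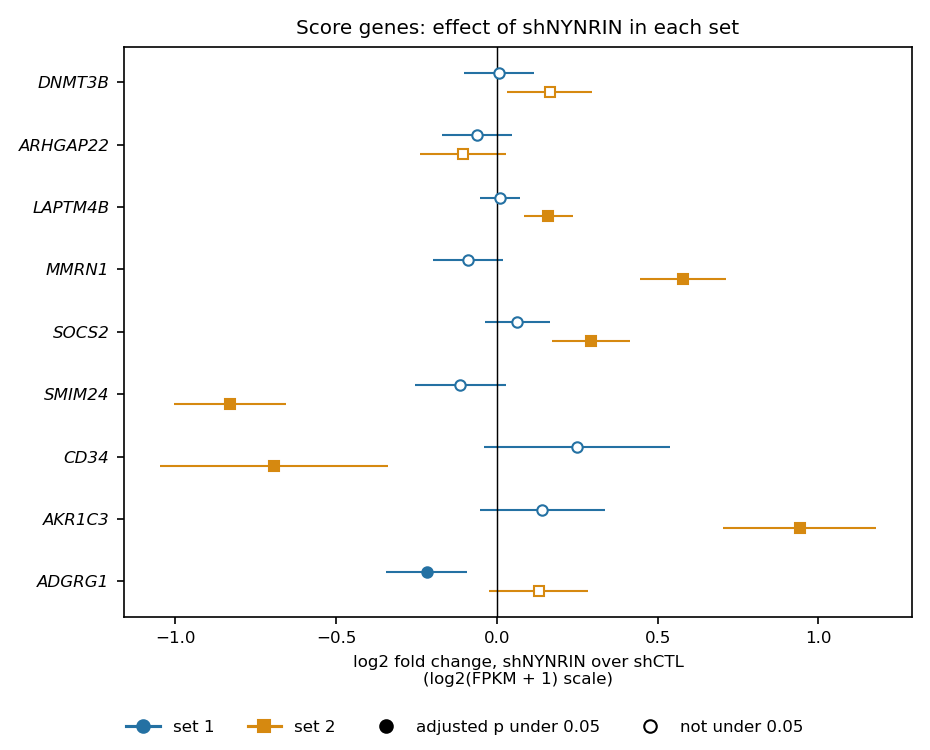
Log2 fold change of shNYNRIN over shCTL (horizontal axis, log2(FPKM + 1) scale) of the 9 tested score genes in set 1 (circles) and set 2 (squares), with 95% intervals from limma; filled symbols have an adjusted p under 0.05. AKR1C3 and MMRN1 lie farthest to the right in set 2, at 0.94 and 0.58, and SMIM24 and CD34 farthest to the left, at -0.83 and -0.69.

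Across the members, the effect of the sets differed for 6 of 9 (LAPTM4B, MMRN1, AKR1C3 and ADGRG1 higher, SMIM24 and CD34 lower in set 2), where 20.4% of all genes passed that test (10.3% higher, the rest lower). The median size of the log2 fold change was 0.091 in set 1 and 0.29 in set 2 for the members, beside 0.11 and 0.14 for all genes tested. The log2 fold changes of MMRN1, CD34 and ADGRG1, 3 of 9, had opposite signs in the sets, where 50.6% of all genes did. In set 2 the calls of MMRN1, SOCS2 and LAPTM4B (positive weight, higher) and SMIM24 (negative weight, lower) had the sign of their weights. Those of CD34 (positive, lower) and AKR1C3 (negative, higher) had the opposite sign, as did the set 1 call of ADGRG1 (positive, lower). Of the rest, DNMT3B and ADGRG1 stood higher and ARHGAP22 lower in set 2, with the sign of their weights but without passing. A change of the score was not tested. In the authors' deposited table, 2 of 9 members (ADGRG1 and CD34) had a q-value under 0.05 in set 1, where 19.9% of its 13068 genes did.

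**Figure D2:**
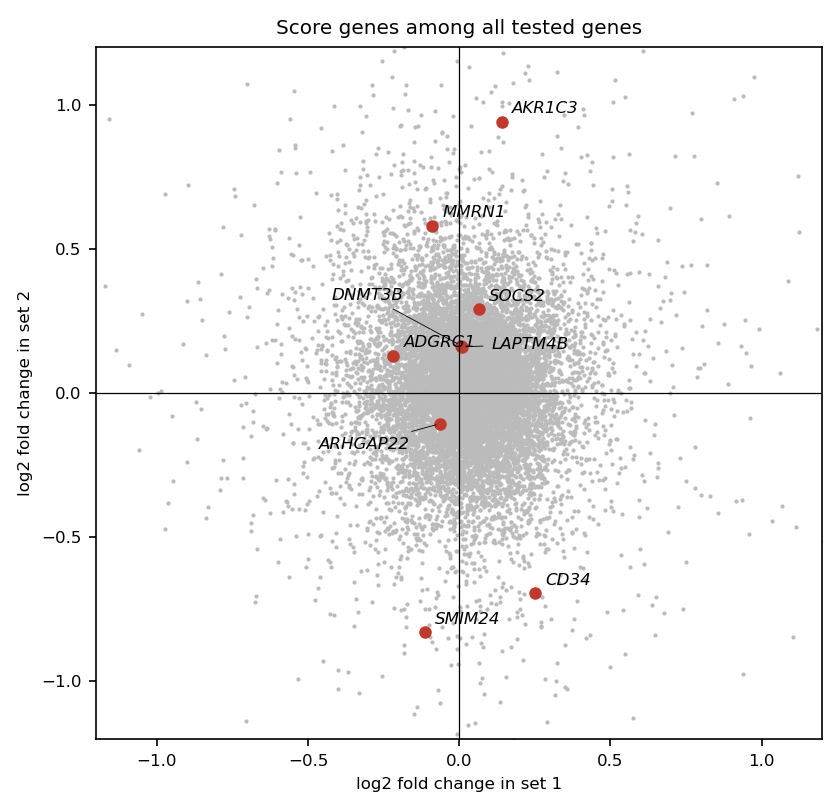
Log2 fold change in set 1 (horizontal axis) against set 2 (vertical axis) for all 12939 tested genes (grey) and the 9 score genes (red); 55 genes lie outside the axes. AKR1C3, SMIM24 and CD34 lie far from 0 on the vertical axis, at 0.94, -0.83 and -0.69. On the horizontal axis they lie at 0.14, -0.11 and 0.25.

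Control levels differed between the tables for the same genes, which bears on the set 2 changes because they rest on shCTL replicate 4. That library stood at 0.763 times the mean of the set 1 controls for MMRN1, 0.715 times for AKR1C3, 1.39 times for SMIM24 and 1.90 times for CD34. The shNYNRIN means of set 2 stood at 1.24, 1.34, 0.833 and 0.551 times those of set 1 for MMRN1, AKR1C3, SMIM24 and CD34. In each of these 4 genes the control and the knockdown libraries of set 2 therefore lay on opposite sides of their set 1 counterparts. The whole numbers of shCTL replicate 3 stood on the same side of the set 1 control mean as shCTL replicate 4 for MMRN1 (18), AKR1C3 (6), SMIM24 (35) and CD34 (1). Table and scaling cannot be told apart in such ratios. In addition, the numbers in the library names of the groups compared within a set differ (shCTL 3 and 4 with shNYNRIN 1 and 2 in set 1, and the reverse in set 2), so any difference between those numbers is part of each set's effect. Libraries of the same number lie in different tables, and their deviations from the group means correlated at 0.102 to 0.153. Libraries of different numbers in different tables correlated at 0.141 to 0.18, so these values do not set the same-number pairs apart. Paired in this way MMRN1 went from 18 (the whole-number column) to 21.5, from 18.2 to 23.3, from 23.8 to 27.8 and from 24.1 to 27.7 FPKM, and was thus higher with shNYNRIN in each pair, unlike in set 1. AKR1C3 and SOCS2 were likewise higher and SMIM24 lower in 4 of 4 pairs. These pairs were counted after seeing the data, and the share of all genes with the same direction in every pair was not computed. CD34, ADGRG1 and ARHGAP22 were lower in the 3 pairs without the whole-number column. ADGRG1 and ARHGAP22 were higher in the pair that has it. For CD34 that pair sets a whole number of 1 against 1.42 FPKM, and its direction is not known if the column is truncated. LAPTM4B and DNMT3B were higher in 3 of 4 pairs. Table and library number cannot be told apart from the difference between the sets.

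When a single effect was fitted to both sets, 0 of 9 members passed (limma adjusted p), where 0.317% of all genes passed, and 3 members had an unadjusted p under 0.05, where 18.7% of all genes did. The 3 were AKR1C3 (log2 fold change 0.46, adjusted p = 0.1997), SMIM24 (-0.40, adjusted p = 0.204) and SOCS2 (0.16, adjusted p = 0.223). The single-effect fit did not call NYNRIN either (-1.05, limma adjusted p = 0.0612). Yet its fall passed in set 1 and in set 2 (limma adjusted p = 0.000984 and 0.000119). Not passing the single-effect fit therefore does not show that a gene had no effect common to the sets. With the library-name number as a replicate block in place of the table, 0 members and 0 genes passed with limma (4 and 2188 at an unadjusted p under 0.05). With 0.5 added to shCTL replicate 3 so that each number had its pair, an alternative chosen after seeing the data, 0 members passed with limma (4 at an unadjusted p under 0.05), and AKR1C3 stood at 0.47 (adjusted p = 0.0649), SMIM24 at -0.43 (0.0718) and MMRN1 at 0.24 (0.0843). Without shCTL replicate 4, which leaves set 1 to give the value, ADGRG1 passed at -0.22 (limma adjusted p = 0.0354). The groups did not overlap over the 7 libraries for 3 members, SOCS2, SMIM24 and ARHGAP22, where 16.2% of all genes did not overlap.

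Of the 6 other genes of the score, 4 were tested. CPXM1, a carboxypeptidase-like secreted protein, and BEX3, an adaptor of neurotrophin receptor signalling, fell in set 1, with log2 fold changes of -0.33 and -0.22 (limma adjusted p = 0.00752 and 0.0141). BEX3 went from 56.8 and 58.1 to 50.1 and 48.0 FPKM in set 1 and from 51.9 to 65.9 and 62.5 FPKM in set 2, a rise of 0.30 (limma adjusted p = 0.00716), and its effect differed between the sets by 0.52 (limma adjusted p = 0.00249). CDK6, a kinase that drives entry into S phase, fell in set 2 from 20.8 to 17.8 and 16.8 FPKM, by 0.26 on the log2 scale (limma adjusted p = 0.0435). The dendritic cell factor ZBTB46 stood between 2.49 and 3.18 FPKM and passed in neither set (limma adjusted p = 0.559 and 0.637). FAM30A, a non-coding RNA, and EMP1, an epithelial membrane protein, are listed in set 2 alone. FAM30A was at 0.445 FPKM in the control and 0.776 and 0.738 FPKM with shNYNRIN, and EMP1 at 0.0353, 0.0661 and 0.0543 FPKM. The median log2 fold change of the 4 was -0.16 in set 1 and -0.11 in set 2, beside 0.026 and 0.018 for all genes. Without shCTL replicate 2 the set 1 falls of CPXM1 and BEX3 did not pass (limma adjusted p = 0.0522 and 0.0807), nor did BEX3 without shCTL replicate 1 (0.0574) or with the title number as a block (0.0578). The CDK6 fall was lost without shCTL replicate 1 or 2 or shNYNRIN replicate 3 or 4 (0.0583, 0.0581, 0.0827 and 0.165).

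Relatives of the members were taken from a list of 30 genes, of which 19 were tested. In set 1, 2 rose and 1 fell, 3 of 19 beside 15.9% of all genes. In set 2, 5 rose and 1 fell, 6 of 19 beside 20.3% of all genes, with median log2 fold changes of 0.039 in set 1 and 0.097 in set 2. MMRN2, the endothelial relative of MMRN1, rose in set 2 from 4.78 to 7.96 and 7.95 FPKM (log2 fold change 0.63, limma adjusted p = 0.00188), beside MMRN1 in the same set. ARHGAP25, a Rac regulator of white blood cells, rose there from 32.5 to 47.3 and 45.9 FPKM (0.51, limma adjusted p = 0.000634), while its relative ARHGAP22 did not pass. The effects of MMRN2 and ARHGAP25 differed between the sets by 0.68 and 0.56 (limma adjusted p = 0.00372 and 0.00105), as did that of the aldose reductase AKR1B1, by 0.27 (0.0140). SOCS3, another cytokine signalling suppressor, rose by 0.20 in set 1 and 0.37 in set 2 (limma adjusted p = 0.0344 and 0.00731). LAPTM4A rose by 0.19 and 0.38 (0.0390 and 0.00620), and the maintenance methyltransferase DNMT1 fell, with log2 fold changes of -0.13 and -0.18 (0.0243 and 0.0132). The set 1 calls of SOCS3, LAPTM4A and DNMT1 were each lost without shCTL replicate 1 or 2 or shNYNRIN replicate 2, 3 or 4 (highest limma adjusted p 0.154, 0.166 and 0.110) and with the title number as a block (0.0954, 0.109 and 0.0936), and those of SOCS3 and LAPTM4A also with upper-quartile scaling (0.0667 and 0.0791). In set 2 DNMT1 was lost without shNYNRIN replicate 3 or 4 (0.0512 and 0.0752), and AKR1B1 (a rise of 0.18, limma adjusted p = 0.0247) without shNYNRIN replicate 3 (0.111), which also ended its difference between the sets (0.0508).

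Stem and progenitor genes were taken from a list of 23, of which 16 were tested. In set 1, 1 rose and 6 fell, where 9.33% of all genes rose and 6.61% fell. In set 2, 8 rose and 0 fell, where 11.6% and 8.71% of all genes did, with median log2 fold changes of -0.013 in set 1 and 0.24 in set 2. MYB, a transcription factor of blood progenitors, fell from 93.7 and 90.5 to 75.4 and 71.8 FPKM in set 1 and rose from 74.5 to 94.4 and 94.7 FPKM in set 2. The log2 fold changes of MYB were -0.32 and 0.34 (limma adjusted p = 0.00363 and 0.00295). The stem cell factors GATA2, LMO2 and TAL1 went the same ways, by -0.27, -0.23 and -0.12 in set 1 and by 0.17, 0.39 and 0.25 in set 2. MECOM, a zinc finger factor of stem cells, rose in set 2 from 9.49 to 17.7 and 17.6 FPKM (0.83, limma adjusted p = 0.000842), and the stem cell factor receptor KIT from 19.9 to 28.9 and 27.4 FPKM (0.48, limma adjusted p = 0.00635). The count of 8 in set 2 includes these 6 genes, and that of 6 in set 1 includes MYB, GATA2, LMO2 and TAL1. CD34, beside them, had log2 fold changes of 0.25 in set 1, which did not pass, and -0.69 in set 2. The set 1 fall of TAL1 was lost without shCTL replicate 1 or 2 or shNYNRIN replicate 1, 3 or 4 (highest limma adjusted p 0.115) and with the title number as a block (0.117), and the set 2 rise of GATA2 without shNYNRIN replicate 3 or 4 (0.0530 and 0.0535). The set 1 count was lower without shCTL replicate 1 or 2, and the set 2 count was lower without shNYNRIN replicate 3 or 4. Those fits leave 1 library in a group of the set, and fewer of all genes passed in them as well.

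**Figure D3:**
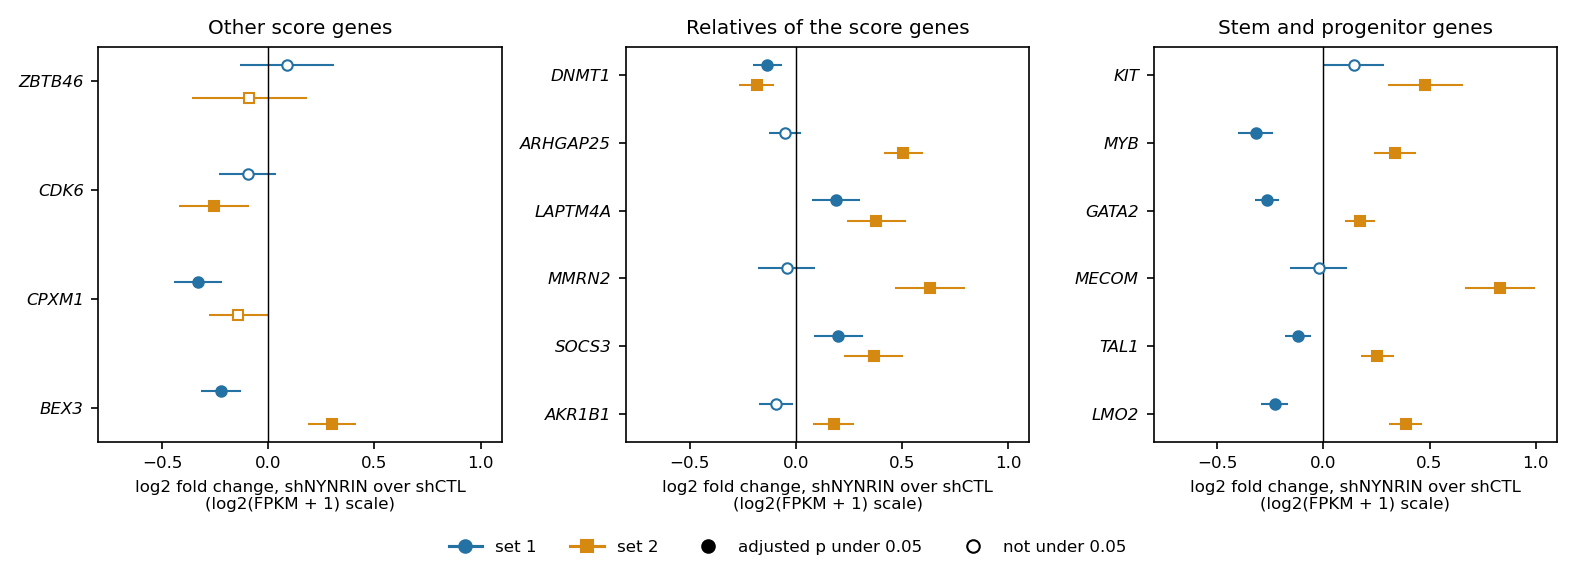
Log2 fold change of shNYNRIN over shCTL (horizontal axes, log2(FPKM + 1) scale) in set 1 (circles) and set 2 (squares), with 95% intervals; filled symbols have an adjusted p under 0.05. The panels hold the 4 other tested score genes and, from each further list, the 6 genes with the lowest adjusted p among those that passed in any comparison. MYB, GATA2, TAL1, LMO2 and BEX3 lie left of 0 in set 1 and right of 0 in set 2.

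For members of at least 10 FPKM on average, the gene with the most similar pattern over the 7 libraries was found by Pearson r of log2(FPKM + 1) among 5879 others. It was NUMB for SOCS2 (r = 0.994), HNRNPD for SMIM24 (0.994), DUSP6 for MMRN1 (0.992), MFGE8 for ADGRG1 (0.986), EAPP for LAPTM4B (0.985), NHERF1 for DNMT3B (0.978) and ENSG00000288851 for ARHGAP22 (0.973). The libraries share their group and table, which shape such a value.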

How the data were processed

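RNA of 8 libraries from sorted cells was made into sequencing libraries with a template-switching kit for low input, per the labels' protocols. Bowtie 0.12.9, Cufflinks 2.1.1 and HTSeq, with hg38 and mm10, are named in the submitters' processing notes with no role for any; no source used here gives settings, annotation or strand. No header names a unit; for 7 libraries the deposited values have the scale and decimals of FPKM. A value of 0.001, used for 0 in set 1, was set to 0. For shCTL replicate 3 the deposited values are whole numbers, handled as a score; the median of that column minus shCTL replicate 4 was -0.5003 for genes at 10 to 30 FPKM, as truncation of FPKM would give. Set 1 comes with columns of the authors' own: a mean normalized count (a signal here), a log2 fold change, and a p-value with its q-value, by a program that no source used here names. Groups and replicate numbers come from the titles, and columns were matched to samples through the library names.

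Log2(FPKM + 1) of 12939 genes with at least 1 FPKM in at least 2 of 7 libraries was fitted in R 4.3.3 by limma 3.58.1 (trended variance, two-sided tests), with Benjamini-Hochberg adjustment over all these genes and a threshold of 0.05. A model of group, table and interaction (3 residual degrees of freedom) gave both sets' effects and the difference; an additive model (4) gave the effect over both sets. The script was tested on simulated data. Fold changes on this scale understate the change of low genes. Library sums were 307554.5 to 311535.7 FPKM over the genes in both tables; no source used here gives the reads of a single library, and the authors' mean normalized counts sum to 38529983 per library of set 1. In set 2 the most frequent ratio of low values gave shNYNRIN replicates 3 and 4 a depth 1.33 and 1.28 times that of shCTL replicate 4. These ratios held for 9.1% and 10.2% of the low genes compared, so the depths are rough. Replicates in a set and group had equal values for at most 0.22% of genes, so none was treated as another deposited again.

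Replicate numbers were checked by correlating deviations from group means over 5880 genes. By library name, same-numbered libraries had an r of 0.102, 0.141, 0.153 and 0.147, and by title -0.128, -0.174, -0.161 and -0.150. For libraries of different library-name numbers in different tables, r was 0.141, 0.162, 0.18 and 0.144. Pairs by library name span both tables, so r also carries the difference between sets; a block by these numbers is given among the alternatives. The alternatives were other pseudocounts (0.1 and 5), filters (none and 10 FPKM), upper-quartile scaling, shCTL replicate 3 as deposited or plus 0.5, no table term and leaving out each library, and 2 further blocks added after seeing the data.

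Members, gene lists and tests were chosen with earlier results of these data known. Named genes were all members, NYNRIN and the rest of the score, and from the lists of relatives and of stem and progenitor genes up to 6 that passed in a comparison, by lowest adjusted p. Gene positions are from GENCODE 29. Listed genes with no row in the tables were not analysed here. The summed erythroid and B cell marker lists are not reported here.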

Additional observations from a re-analysis of the deposited data

Results flagged for a closer look

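For the following genes the effect of shNYNRIN differed between the sets by limma's test of the interaction, with shCTL replicate 4 as the lone tested control of set 2. Values are the log2 fold change in set 2 minus that in set 1. Among the score genes it was -0.94 for CD34 (adjusted p = 0.0166), -0.72 for SMIM24 (0.00371), 0.80 for AKR1C3 (0.00775), 0.67 for MMRN1 (0.00190), 0.35 for ADGRG1 (0.0286) and 0.15 for LAPTM4B (0.0460). For NYNRIN it was -0.85 (0.00132), and for BEX3 0.52 (0.00249). Among relatives it was 0.56 for ARHGAP25 (0.00105), 0.68 for MMRN2 (0.00372) and 0.27 for AKR1B1 (0.0140). Among stem and progenitor genes it was 0.34 for KIT (0.0489), 0.66 for MYB (0.000800), 0.44 for GATA2 (0.000897), 0.85 for MECOM (0.00173), 0.37 for TAL1 (0.00200) and 0.62 for LMO2 (0.000537). Calls of the difference were lost for ADGRG1 under 4 alternatives (highest adjusted p 0.0909), for LAPTM4B under 5 (0.137), for CD34 under 2 (0.123) and for AKR1B1 under 1 (0.0508). That for KIT was lost with 5 as the pseudocount (0.0560), without shCTL replicate 1 or 2 (0.124 and 0.0700) and without shNYNRIN replicate 1, 3 or 4 (0.0649, 0.138 and 0.0837). Over all genes, 747 passed in both sets, and 454 of these had opposite signs.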

How the results depend on the processing

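Over both sets 41 genes passed with limma (25 higher, 16 lower), and 88 with a minimum of 10 FPKM, 356 with shCTL replicate 3 as deposited and 421 with 0.5 added to it. With a replicate block by the number in the library name, by the number in the title, or with no table term, 0 genes passed with limma (2188, 1305 and 2065 at an unadjusted p under 0.05), and the cause was not tested. Both blocks left the count of members at 0. Added after seeing the data, the library-name block with 0.5 added to shCTL replicate 3 gave 10 genes, and the title number as a replicate block in the 4 libraries of set 1 (1 residual degree of freedom) gave 626 genes and 0 members there, with 3461 genes and 1 member at an unadjusted p under 0.05. Set 2 holds 1 complete pair of tested libraries, so no block was fitted within it. In set 1, 0 members passed with shCTL replicate 3 as deposited. Leaving out 1 library at a time gave 0 to 2088 genes and 0 to 1 members over both sets, 611 to 2088 genes and 0 to 1 members in set 1, 1170 to 2975 genes and 3 to 7 members in set 2, and 1429 to 2590 genes and 3 to 6 members for the difference, with fewer samples in each fit. Set 2 and the difference could not be fitted without shCTL replicate 4. The highest count over both sets came without shCTL replicate 4; without any other library it was 0 (at least 1803 at an unadjusted p under 0.05). Upper-quartile scaling gave 789 higher and 1183 lower genes in set 1 in place of 1207 and 855, and 10 and 20 over both sets.

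Signs turned for values that did not pass. With shCTL replicate 3 as deposited, ADGRG1 over both sets was 0.0095, the ARHGAP22 difference 0.030, the ZBTB46 difference 0.024 and ZBTB46 in set 2 0.11. With 0.5 added to it, the ARHGAP22 difference was 0.0063 and ZBTB46 in set 2 9e-04. With upper-quartile scaling, DNMT3B and LAPTM4B in set 1 were -0.033 and -0.030. Leaving out 1 library at a time gave -0.055 to 0.068 for DNMT3B in set 1 (lowest without shNYNRIN replicate 1, and -0.024 without shCTL replicate 2), -0.018 to 0.038 for LAPTM4B in set 1 (lowest without shCTL replicate 1), -0.086 to 0.042 for MECOM in set 1 (highest without shNYNRIN replicate 1, and 0.022 without shCTL replicate 2), -0.18 to 0.0052 for ZBTB46 in set 2 (highest without shNYNRIN replicate 4), and -0.091 to 0.27 for MMRN1 and -0.26 to 0.25 for CD34 over both sets (-0.091 and 0.25 without shCTL replicate 4). Of 1236 recomputed gene values, 1126 kept sign and side of the threshold. With read depth per library not known, no counting error can be given; CD34 stood closest to the 1 FPKM minimum among the members tested.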
